A study of Drosophila melanogaster with 30 samples.

Results

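Glutathione transferases join the thiol of reduced glutathione to electrophilic compounds, among them xenobiotics and products of lipid peroxidation, and some members also reduce peroxides. The cytosolic enzymes fall into classes by sequence. The Delta and Epsilon classes are largely particular to insects, have expanded by tandem duplication and are known for their part in the detoxification of insecticides, whereas the Sigma, Theta, Omega and Zeta classes have relatives in vertebrates. The members described here are the 35 genes, of 17807 in the deposited tables, whose FlyBase symbol is Gst followed by a class letter (D, E, S, T, O or Z) and a number. They comprise 11 Delta, 14 Epsilon, 1 Sigma, 4 Theta, 3 Omega and 2 Zeta genes. The questions were which of these genes rise in heat and whether cold has the opposite effect.

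Pools of 6 whole adult female Drosophila melanogaster of the Canton S strain, reared at 25°C, were brought to 4°C, 10°C, 34°C or 37°C in a water bath that changed by 0.25°C per min, and flies at 25°C served as control. There were 3 libraries selected for polyadenylated RNA (polyA+) and 3 depleted of ribosomal RNA (rRNA-depleted) at each of the 5 temperatures, 30 in all, without further treatment. Whether libraries of both types with the same replicate number came from the same pool is not stated. The sample records give a hold of 5 min in heat and 0 min in cold. The methods of the study assign the hold to 4°C and 37°C, and its results and design figure give 5 min without such a split. The length of exposure at 4°C, 10°C and 34°C is therefore not settled. The legend of that figure also gives a number of flies other than the 6 of the sample records and methods. RNA amount (0.8 µg against 0.3 µg), kit, instrument and original read length (150 bp against 85 bp) differed between the library types and cannot be told apart from the type.

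The values are read counts per gene from a table in which polyA+ reads had been shortened to 85 bp and thinned until their depth matched that of the rRNA-depleted libraries. Totals ran from 2067003 to 5541348 counts in rRNA-depleted and from 2188773 to 5925256 counts in polyA+ libraries. Levels are given as CPM, counts scaled to a common total per library with TMM factors found within a library type. Calls required 2 things together: an edgeR quasi-likelihood p that stayed under 0.05 after Benjamini-Hochberg adjustment over all genes, and a change of 1 log2 unit or more. Each group had 3 libraries. Of 14 heat shock genes tested in rRNA-depleted libraries, 11 were called higher at 34°C and 13 at 37°C, and of 13 tested in polyA+ libraries 7 and 11. The summed level of 5 male-specific genes was at most 1.35 CPM in any library.

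Among the polyA+ libraries 5 stood apart and were singled out after seeing the data. They are replicate 2 at 10°C, replicates 2 and 3 at 34°C and replicates 1 and 2 at 37°C. Histone genes, whose transcripts are mostly not polyadenylated, held 0.00173% to 0.00476% of the full counts in these 5 libraries and 0.0144% to 0.0240% in the other 10. The summed level of 7 muscle genes was 16248 to 27956 CPM in the 5 and 2282 to 5225 CPM in the other 10. The sum of 11 ovary and follicle cell genes was 1159 to 17253 CPM against 17333 to 50074 CPM. The sum of 6 Malpighian tubule genes was 763 to 842 CPM against 472 to 685 CPM. That of 8 eye and head genes was 2492 to 4136 CPM against 750 to 1976 CPM. The midgut and fat body sums overlapped. The fold changes of the members called in polyA+ libraries in heat, and the medians over members, are therefore also given without these libraries. Leaving them out leaves 1 polyA+ library at 34°C and 1 at 37°C, whose spread is then assumed to be that of the other groups. Loss of a call in that fit therefore does not show loss of a response.

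Transcript levels of the family spanned more than 3 orders of magnitude at 25°C. GstD1, a Delta enzyme that is widely used as a reporter of the oxidative stress response, was the most abundant member per kb of exon in both library types, with 491 ± 29.3 CPM (SD, n = 3) in rRNA-depleted and 1418 ± 353 CPM in polyA+ libraries. It alone held 41.3% and 56.3% of the summed CPM of the 35 genes. Per kb of exon its level was 582 CPM in rRNA-depleted libraries, followed by GstS1 with 81.0, GstE12 with 80.7 and GstT1 with 60.9 CPM per kb, and the spread of GstS1 and GstE12 over libraries was larger than the gap between them. GstZ1, of the class that isomerises maleylacetoacetate in tyrosine breakdown, led the Zeta class with 8.98 CPM per kb. Over all temperatures GstO3 led the Omega class in these libraries with 33.7 CPM per kb, although at 25°C GstO2 was higher (27.0 against 13.5 CPM per kb).

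**Figure D1:**
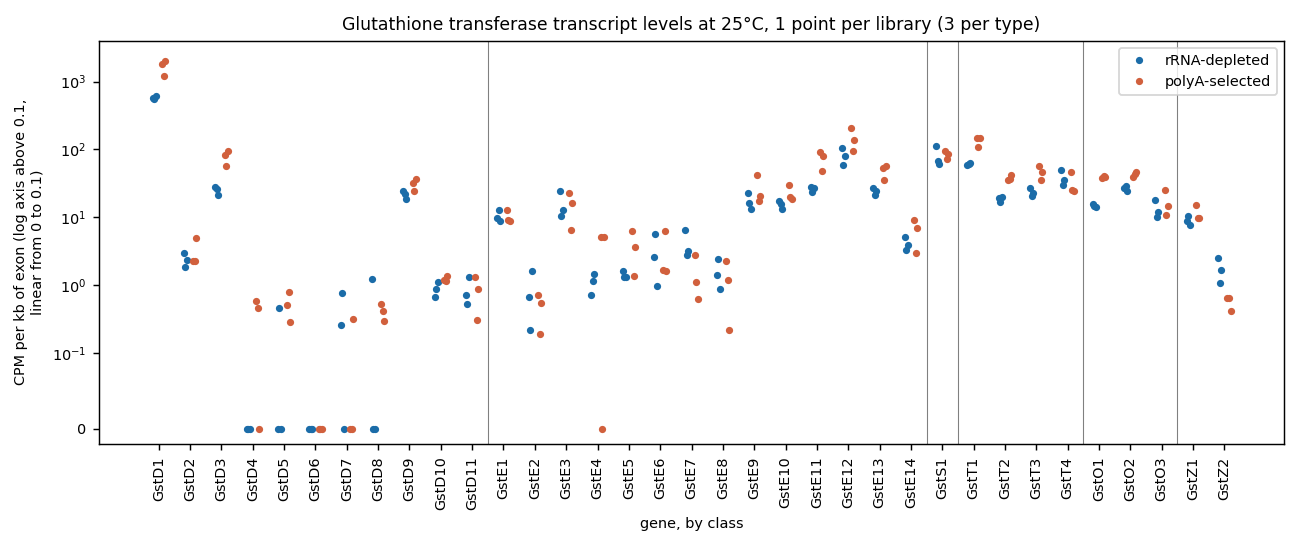
Level of each of the 35 genes at 25°C in CPM per kb of exon (log axis above 0.1, linear below), by class from Delta (left) to Zeta (right), with 1 point per library and 3 libraries per type. GstD1 stands above all other members in both library types, and GstD4 to GstD8 lie near or at 0.

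The Delta and Epsilon genes differ in level from neighbour to neighbour within their arrays. The 11 Delta genes lie within 20.8 kb of chromosome arm 3R (dm6 positions 12364776 to 12385624). GstD1 and GstD6, a gene without a count in any library at 25°C, are thus close neighbours. GstE1 to GstE10 lie within 13.2 kb of arm 2R (18396638 to 18409835), and GstE11 to GstE14 elsewhere on 2R. The genes GstE6, GstE7, GstE8 and GstE9 follow one another on the plus strand with gaps of 162, 145 and 92 bp, and each consists of 1 exon. GstO3 is on 3L (8518885 to 8520295, plus strand, 2 exon blocks) beside GstO2 and GstO1. No member shares exon bases with another gene on its own strand. On opposite strands 20 bp are shared by GstE1 and GstE10, 40 bp by GstE9 and imd, 33 bp by GstE12 and CG3894, 6 bp by GstE13 and CG18659, 61 bp by GstO2 and se, and 223 bp by GstT2 and CG12926. The kits mark strand, but whether the counting used it is not stated, so reads in these stretches cannot be assigned with certainty.

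Of the 35 members, 27 passed the filter on low counts in rRNA-depleted libraries (9718 genes tested) and 31 in polyA+ libraries (9257 genes tested). GstD4, GstD6, GstD8 and GstE2 failed in both, and GstD5, GstD7, GstD11 and GstE5 in rRNA-depleted libraries only. GstD6 had 3 counts in all over the 15 rRNA-depleted and 6 over the 15 polyA+ libraries. GstE5 had the most counts of a filtered member, 86 over 15 libraries.

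At 37°C, 5 of the 27 members tested in rRNA-depleted libraries were called higher than at 25°C and 0 lower, where 2.06% of all genes tested were called higher. These were GstE7, GstE8, GstE3 and GstE1 of the Epsilon class and GstO3 of the Omega class. In polyA+ libraries 11 of 31 members were called higher and 0 lower, where 3.76% of all genes tested were called higher. They include the same 5 genes and also GstE6, GstE9, GstD2, GstD5, GstD7 and GstD10. The median log2 fold change at 37°C was 0.28 over the members and -0.05 over all genes in rRNA-depleted libraries, and 1.32 over the members and -0.18 over all genes in polyA+ libraries. Without the 5 libraries of low histone share the polyA+ medians were 0.63 over 28 members and -0.06 over all genes. None of the Theta and Zeta genes was called, nor was GstS1, nor the abundant GstD1. The lowest log2 fold changes at 37°C were those of GstT4 in rRNA-depleted libraries (-0.14 ± 0.25, edgeR adjusted p = 0.831) and GstO1 in polyA+ libraries (-0.68 ± 0.52, adjusted p = 0.389).

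GstE7 (FBgn0063493) had the largest fold change of any member in rRNA-depleted libraries and was called in both library types at both heat levels. In rRNA-depleted libraries its controls stood at 4.97, 2.15 and 2.43 CPM, the 34°C libraries at 27.5, 19.1 and 14.8 CPM and the 37°C libraries at 33.8, 37.8 and 45.0 CPM. All heat libraries lay above all 25°C libraries, and the 37°C libraries lay above those at 34°C. The log2 fold change was 2.66 ± 0.44 (SE, edgeR adjusted p = 0.00687) at 34°C and 3.59 ± 0.45 (adjusted p = 2.57e-04) at 37°C.

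The same gene in polyA+ libraries stood at 2.12, 0.848 and 0.486 CPM at 25°C, from 10, 5 and 2 counts. It had 21.9, 21.7 and 33.9 CPM at 34°C and 123, 69.8 and 35.2 CPM at 37°C. Here too the groups were in separate ranges. The edgeR log2 fold change was 4.45 ± 0.66 (adjusted p = 0.0108) at 34°C and 6.00 ± 0.70 (adjusted p = 5.45e-04) at 37°C, the smallest p of any member in these libraries. Without the 5 libraries of low histone share it was 4.89 at 37°C, where 1 library is then left.

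GstO3 (FBgn0035904), of a class that acts on thiols and dehydroascorbate rather than mainly by conjugation, had the smallest p of any member in rRNA-depleted libraries at 37°C. It stood there at 16.1, 9.01 and 10.7 CPM at 25°C, 23.7, 40.6 and 30.6 CPM at 34°C and 76.9, 69.4 and 71.5 CPM at 37°C. The 3 temperatures did not overlap. The edgeR log2 fold change against 25°C was 1.41 ± 0.25 (adjusted p = 0.0108) at 34°C and 2.60 ± 0.25 (adjusted p = 1.26e-05) at 37°C.

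In polyA+ libraries GstO3 stood at 22.0, 9.49 and 13.1 CPM at 25°C, 39.2, 38.1 and 42.9 CPM at 34°C and 236, 148 and 89.1 CPM at 37°C. The groups were again separate, but only the 37°C difference was called, with a log2 fold change of 3.40 ± 0.51 (edgeR adjusted p = 0.00515). At 34°C it was 1.43 ± 0.47 (adjusted p = 0.431). Without the libraries of low histone share the 37°C value was 2.58.

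**Figure D2:**
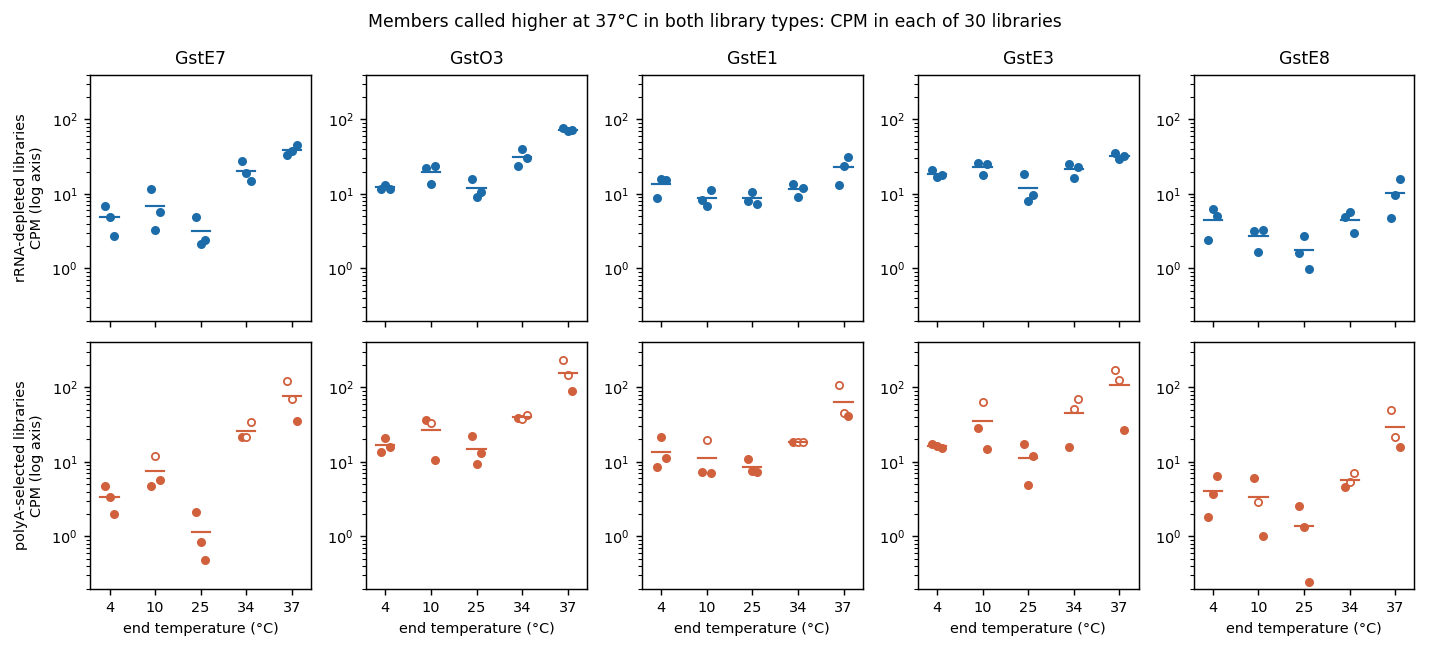
CPM on a log axis in each library for GstE7, GstO3, GstE1, GstE3 and GstE8 by end temperature in °C, rRNA-depleted libraries above and polyA+ libraries below, with a short line at the mean of 3. Open points are the 5 polyA+ libraries of low histone share. GstE7 and GstO3 lie higher at 34°C than at 25°C and higher still at 37°C in both rows, and no group at 4°C or 10°C lies wholly under 25°C.

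GstE8, GstE3 and GstE1, neighbours of GstE7 in the Epsilon array, were called at 37°C but not at 34°C. In rRNA-depleted libraries GstE8 stood at 1.59, 2.74 and 0.972 CPM at 25°C and at 4.68, 9.77 and 16.0 CPM at 37°C. GstE3 stood at 18.7, 8.03 and 9.72 CPM and at 35.0, 29.8 and 32.0 CPM. GstE1 stood at 8.14, 10.8 and 7.29 CPM and at 13.3, 23.4 and 31.5 CPM. For all 3 genes the 37°C libraries lay above the 25°C libraries, with the least room for GstE1. The log2 fold changes were 2.48 ± 0.50 (edgeR adjusted p = 0.0102), 1.41 ± 0.28 (adjusted p = 0.00826) and 1.37 ± 0.32 (adjusted p = 0.0244).

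In polyA+ libraries the fold changes of these 3 genes at 37°C were larger and more scattered. GstE8 went from 2.54, 1.36 and 0.243 CPM to 50.2, 21.7 and 15.8 CPM, a log2 fold change of 4.36 ± 0.84 (edgeR adjusted p = 0.0193). GstE1 went from 10.8, 7.63 and 7.28 CPM to 106, 45.2 and 41.4 CPM, a log2 fold change of 2.90 ± 0.53 (adjusted p = 0.0166). GstE3 went from 17.2, 4.92 and 12.1 CPM to 171, 127 and 26.6 CPM, a log2 fold change of 3.25 ± 0.75 (adjusted p = 0.0347). Replicates 1 and 2 of GstE3 at 37°C, both of low histone share, were far above replicate 3. Without the libraries of low histone share the log2 fold change of GstE3 was 1.23 against 2.26 for GstE1 and 3.46 for GstE8.

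Counts of GstE8 depended on read length more than those of the other members. Over the 15 polyA+ libraries the full counts from 85 bp reads were 1.39 times those from 150 bp reads for GstE8, 1.15 times for GstE1, 1.04 times for GstE7 and 1.04 times over all genes. Among the 33 members with at least 100 counts the ratio ran from 0.917 to 1.39. How reads shared by near-identical copies were counted is not stated, so the level of a single Epsilon or Delta copy is uncertain to that extent.

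Of the other 6 members called in polyA+ libraries at 37°C, 4 did not pass the test in rRNA-depleted libraries and 2, GstD5 and GstD7, were outside the filter there. The 6 include 4 Delta genes of low level. GstD2 stood at 1.69, 1.70 and 3.64 CPM at 25°C and at 82.6, 24.3 and 6.38 CPM at 37°C in polyA+ libraries, a log2 fold change of 4.01 ± 0.80 (edgeR adjusted p = 0.0243). In rRNA-depleted libraries it stood at 2.18, 1.37 and 1.70 CPM and at 7.15, 2.57 and 2.75 CPM, a log2 fold change of 1.23 ± 0.68 (adjusted p = 0.356).

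GstD10 stood at 1.06, 1.02 and 1.21 CPM at 25°C and at 25.7, 18.0 and 5.55 CPM at 37°C in polyA+ libraries. Its log2 fold change was 3.87 ± 0.96 (edgeR adjusted p = 0.0435), and in rRNA-depleted libraries, where the groups did not overlap either, it was 1.79 ± 0.58 (adjusted p = 0.0975). As for GstD2, the libraries of low histone share were the highest of the 3 at 37°C, and without them the log2 fold change of GstD10 was 2.30.

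GstD5 and GstD7 rested on very few reads at 25°C. GstD5 had 2, 4 and 1 counts at 25°C and 85, 41 and 1 counts at 37°C in polyA+ libraries, so that replicate 3 lay within the range of the controls in spite of a log2 fold change of 4.57 ± 1.08 (edgeR adjusted p = 0.0376). GstD7 had 0, 0 and 1 counts at 25°C and 60, 49 and 4 counts at 37°C. After scaling for depth the ratio of its summed counts was 154, with a 95% exact interval of 27.1 to 6142 that covers counting error alone. Its fitted log2 fold change of 6.69 ± 1.60 (edgeR adjusted p = 0.0384) had the largest size of any member, and GstD7 was not called from the full counts of the same libraries. In rRNA-depleted libraries GstD5 had 0, 2 and 0 counts at 25°C and 12, 6 and 4 at 37°C, and GstD7 1, 3 and 0 counts and 4, 3 and 4 counts. In CPM both genes lay higher in all 37°C than in all 25°C libraries of this type, from few reads, and neither was tested. Without the libraries of low histone share both were outside the filter in polyA+ libraries as well.

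GstE6 and GstE9 flank GstE7 and GstE8. GstE6 stood at 1.27, 4.75 and 1.21 CPM at 25°C and at 39.7, 7.44 and 21.9 CPM at 37°C in polyA+ libraries, a log2 fold change of 3.22 ± 0.81 (edgeR adjusted p = 0.0438). GstE9 stood at 33.5, 13.9 and 16.5 CPM and at 235, 165 and 58.6 CPM, a log2 fold change of 2.84 ± 0.63 (adjusted p = 0.0301). In rRNA-depleted libraries their log2 fold changes were 1.79 ± 0.67 (adjusted p = 0.163) and 0.43 ± 0.25 (adjusted p = 0.385), and both groups overlapped. Without the libraries of low histone share GstE6 was at 3.11, GstE9 at 1.46 and GstD2 at 1.44 on the log2 scale.

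**Figure D3:**
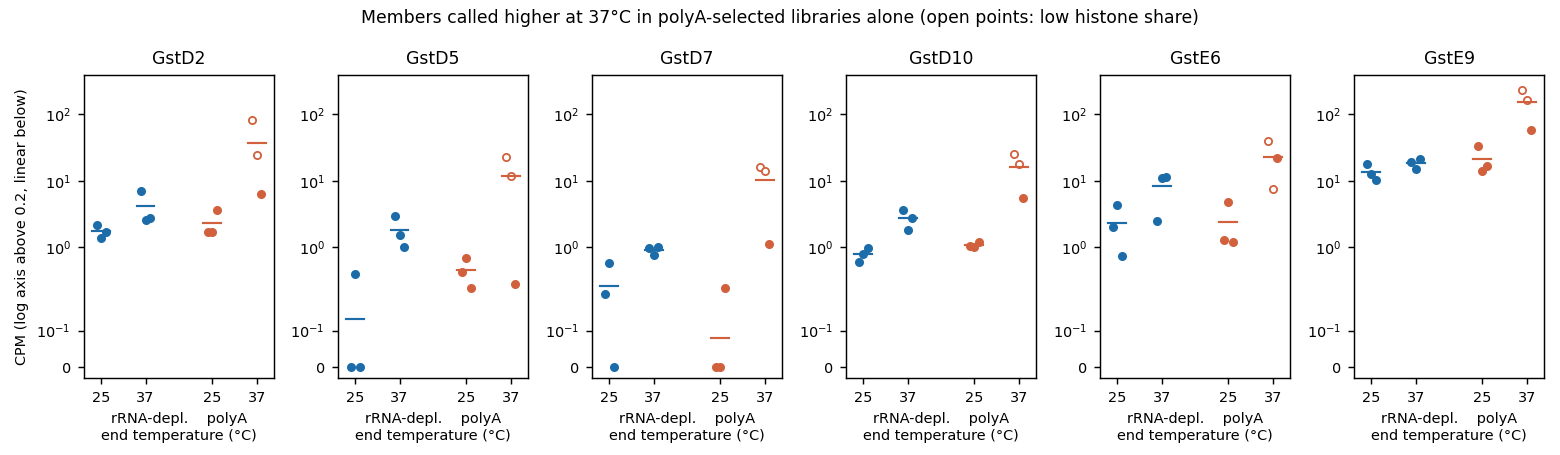
CPM of the 6 members called higher at 37°C in polyA+ but not in rRNA-depleted libraries (log axis above 0.2, linear below), at end temperatures of 25°C and 37°C, with 1 point per library and a line at the mean of 3. Open points are polyA+ libraries of low histone share, and for all 6 genes but GstE6 both of them lie above replicate 3 at 37°C.

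A response that passes in one library type and not in the other does not show that the types differ, and the difference itself was tested over all 30 libraries. Of 31 members, 0 had a response at 37°C that differed between library types (edgeR interaction, adjusted p under 0.05), where 0.0099% of all genes did. An unadjusted p under 0.05 was found for 9 members and for 15.3% of all genes. This fit treats the libraries as independent. With libraries of the same number at a temperature taken as a block, 0 members had a differing response at 37°C. There 6 members had an unadjusted p under 0.05, against 13.3% of all genes. The smallest adjusted p, 0.248 in the edgeR interaction, was shared by GstE9 and GstE7, whose responses differed by -2.53 ± 0.71 and -2.52 ± 0.80 log2 units (rRNA-depleted minus polyA+). At 4°C, 10°C and 34°C the number at an unadjusted p under 0.05 was 0, 1 and 2, against 0.92%, 2.14% and 3.22% of all genes. Without both libraries numbered 3 at 37°C, among them the polyA+ library of usual histone share, 2 of 32 members passed the adjusted threshold, where 5.27% of all genes did.

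At 34°C fewer members were called. In rRNA-depleted libraries GstE7 and GstO3 were called higher, 2 of 27 members and 0 lower, where 0.679% of all genes were called higher. In polyA+ libraries GstE7 alone was called, 1 of 31, where 0.0864% of all genes were called higher. Without the libraries of low histone share the log2 fold change of GstE7 was 4.06. GstD7 had the largest log2 fold change in polyA+ libraries at 34°C, 4.95 ± 1.59 (edgeR adjusted p = 0.423). The lowest member was GstE6 in rRNA-depleted libraries (-0.58 ± 0.76, adjusted p = 0.670) and GstT2 in polyA+ libraries (-0.47 ± 0.37, adjusted p = 0.956). Between 34°C and 37°C themselves 0 members were called in either type by edgeR, where 0.175% of all genes in rRNA-depleted and 0% in polyA+ libraries were called higher, while 9 of 27 and 8 of 31 members had an unadjusted p under 0.05, against 13.2% and 7.13% of all genes. GstO3 was 1.19 ± 0.24 log2 units higher at 37°C in rRNA-depleted libraries (adjusted p = 0.0547). DESeq2's Wald test called 1 member in each type, where it called 33 genes higher in rRNA-depleted and 22 in polyA+ libraries. In rRNA-depleted libraries edgeR called 1 without the filter or from the 6 libraries alone, where 18 and 24 genes were called higher.

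No member was called lower in cold. At 10°C 0 members were called by edgeR in rRNA-depleted libraries, in which 2.11% of all genes tested were called in either direction. DESeq2's Wald test also called 0 members, and of all 9718 genes 175 higher and 151 lower. Of the 27 members, 8 had an unadjusted p under 0.05, all of them higher at 10°C, where 24.7% of all genes had one in either direction. In polyA+ libraries 0 of 31 were called by edgeR at 10°C, where 0% of all genes were. There 6 had an unadjusted p under 0.05, again all higher, against 6.31% of all genes. DESeq2 called 1 of the 31 higher, and of all 9257 genes 72 higher and 3 lower. At 4°C edgeR and DESeq2 both called 0 members in each type. Of all genes edgeR called 0.0103% in rRNA-depleted and 0% in polyA+ libraries. DESeq2 called 7 genes higher and 9 lower in rRNA-depleted and 4 and 4 in polyA+ libraries. In each type 2 members had an unadjusted p under 0.05, all higher, against 4.12% and 0.627% of all genes.

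The signs of the fold changes at 10°C were mostly those seen in heat. In rRNA-depleted libraries 23 of 27 members had a log2 fold change above 0 at 10°C, and the same number at 37°C. Of all genes 50.6% and 43.4% did. Their median at 10°C was 0.37, against 0.01 over all genes. For 5 members all 3 libraries at 10°C lay above all 3 at 25°C, where 12.3% of all genes did, and for 0 members all lay below, where 18.4% of all genes did. In polyA+ libraries 25 of 31 members were above 0 at 10°C, where 58.0% of all genes were. Their median was 0.47 against 0.10 over all genes. There 1 member lay wholly above, where 3.17% of all genes did, and 0 wholly below, where 4.88% did. Without the 1 library of low histone share at 10°C, 19 of 32 members were above 0 there. Their median was 0.34 against 0.15 over all genes. Without all 5 such libraries 16 of 28 members were above 0, near the 58.0% of all genes with every library kept. Their median was then 0.15 against 0.08 over all genes. The comparisons of 10°C and 37°C share the 25°C libraries, so a low 25°C library raises both.

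Each member taken singly missed the threshold at 10°C. GstE9 had the smallest p in rRNA-depleted libraries, with 28.7, 20.5 and 24.6 CPM at 10°C against 17.9, 12.7 and 10.4 CPM at 25°C. These ranges are separate, and the log2 fold change was 0.84 ± 0.25 (edgeR adjusted p = 0.0580). GstE3 stood at 26.3, 17.9 and 25.1 CPM at 10°C, overlapping its highest 25°C library, with a log2 fold change of 0.92. GstE7 stood at 11.6, 3.31 and 5.68 CPM (1.09) and GstO3 at 22.4, 13.6 and 23.7 CPM (0.72), both overlapping 25°C. Without replicate 1 at 25°C, the highest of the controls for GstE3, GstE9 and GstO3, these 3 genes were called higher at 10°C. Leaving out the highest control of a gene raises its fold change. Calls over all genes also rose in that fit, from 85 higher and 120 lower to 171 and 202.

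GstD10 had the largest log2 fold change at 10°C in rRNA-depleted libraries, 1.50 ± 0.62 (edgeR adjusted p = 0.149), with at least 1.32 CPM against at most 0.972 CPM at 25°C. These levels rest on 10, 4 and 4 counts at 10°C and 3, 4 and 4 counts at 25°C, and the 10°C libraries had lower totals. GstZ1 had the lowest, -0.24 ± 0.27 (adjusted p = 0.615). In polyA+ libraries the largest was that of GstD7, 4.41 ± 1.62 (adjusted p = 0.740), which came from 1 library of low histone share at 5.86 CPM beside 0 and 0.335 CPM. GstE7 had the smallest p, with 4.77, 12.0 and 5.70 CPM at 10°C against at most 2.12 CPM at 25°C and a log2 fold change of 2.68 ± 0.64 (adjusted p = 0.719). The lowest was GstO1, -0.46 ± 0.52 (adjusted p = 0.978).

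At 4°C GstE8 had both the smallest p and the largest log2 fold change in rRNA-depleted libraries, 1.31 ± 0.52 (edgeR adjusted p = 1), with 2.42, 6.19 and 5.00 CPM. In polyA+ libraries it was GstE6, 2.36 ± 0.78 (adjusted p = 1), with 7.61, 17.7 and 13.0 CPM, all above the 25°C libraries. The lowest members were GstZ2 in rRNA-depleted (-0.55 ± 0.44) and GstD5 in polyA+ libraries (-0.86 ± 1.26), both with an adjusted p of 1. GstO3, the member of smallest p at 37°C, stood at 11.8, 13.4 and 11.5 CPM in rRNA-depleted libraries at 4°C, a log2 fold change of 0.03.

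**Figure D4:**
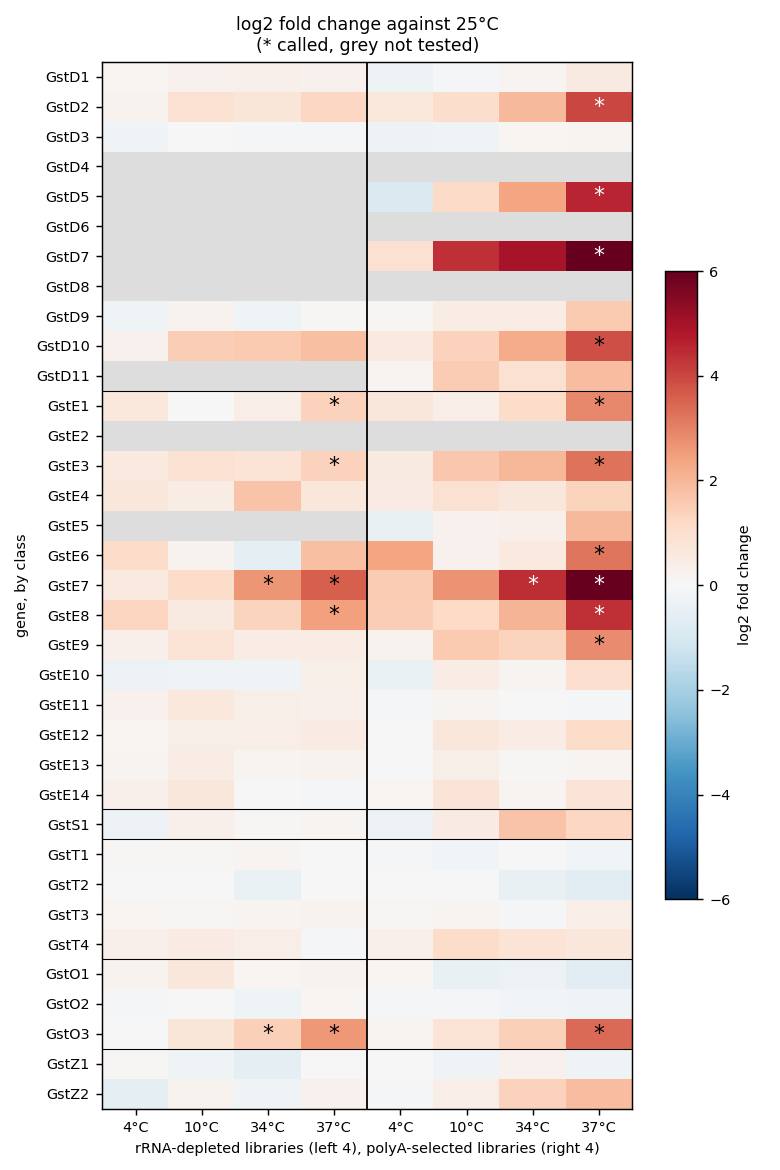
log2 fold change of each of the 35 genes against 25°C, by class from top (Delta) to bottom (Zeta), for end temperatures of 4, 10, 34 and 37°C in rRNA-depleted (left) and polyA+ libraries (right). A star marks a called gene and grey a gene outside the filter, and all stars are positive values at 34°C or 37°C.

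Heat and cold were also compared directly, which leaves out the shared controls. Between 37°C and 10°C in rRNA-depleted libraries 3 of 27 members were called higher at 37°C and 0 lower, where 1.05% of all genes were called higher. These were GstE7 (2.49 ± 0.43, edgeR adjusted p = 0.00427), GstO3 (1.88 ± 0.25, adjusted p = 3.75e-04) and GstE1 (1.36 ± 0.33, adjusted p = 0.0400). GstE1 was at 8.40, 6.95 and 11.4 CPM at 10°C, close to its 25°C level, and its call against 10°C was lost in 8 of 13 alternative fits: without replicate 1, 2 or 3 at 10°C, without replicate 2 or 3 at 37°C, under glmTreat, with the replicate block and from the 6 libraries alone. In polyA+ libraries GstE7 alone was called (3.33 ± 0.61, adjusted p = 0.0344), 1 of 31, where 0.216% of all genes were called higher, and its call was lost in 8 of 15 alternative fits: without replicate 1 or 3 at 10°C or replicate 1 or 2 at 37°C, under DESeq2 size factors, with the replicate block, from the 6 libraries alone and without the libraries of low histone share (2.80). The lowest members were GstE14, an enzyme of ecdysteroid synthesis, in rRNA-depleted libraries (-0.79 ± 0.37, adjusted p = 0.273) and GstT2 in polyA+ libraries (-0.68 ± 0.37, adjusted p = 0.516).

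GstD1, the member with the highest CPM at 25°C in rRNA-depleted libraries, was not called at any temperature there. It stood at 484, 465 and 523 CPM at 25°C, 659, 507 and 582 CPM at 10°C and 500, 585 and 655 CPM at 37°C, and its log2 fold changes were 0.25 ± 0.15 (edgeR adjusted p = 0.317) and 0.24 ± 0.15 (adjusted p = 0.412). The summed CPM of the 35 genes was 1187 ± 131 (SD, n = 3) in controls. It was 1232 ± 62.4 and 1452 ± 153 CPM after cooling to 4°C and 10°C, and 1430 ± 54.3 and 1527 ± 123 CPM after heating to 34°C and 37°C. Between 25°C and 37°C the Omega sum went from 73.1 ± 5.51 to 141 ± 15.8 CPM and the Epsilon sum from 230 ± 45.6 to 380 ± 31.5 CPM, while the Theta sum was 157 ± 17.0 and 160 ± 11.3 CPM. In polyA+ libraries the sum over all 35 genes was 2520 ± 549 CPM at 25°C and 4363 ± 1025 CPM at 37°C, where the library of usual histone share was the lowest at 3465 CPM.

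GstS1, the Sigma class enzyme, is known in Drosophila for its abundance in flight muscle, where it conjugates the lipid peroxidation product 4-hydroxynonenal. Its polyA+ level was high in the 5 libraries of low histone share. It was 465 to 906 CPM in these 5 libraries, with a median of 582 CPM, and 116 to 223 CPM in the other 10, with a median of 187 CPM. The 5 libraries come from 10°C, 34°C and 37°C, and at each of these temperatures the libraries of usual share lay with the controls: 195 and 135 CPM at 10°C, 223 CPM at 34°C and 192 CPM at 37°C. In rRNA-depleted libraries GstS1 was between 139 and 257 CPM throughout, and its log2 fold change at 37°C was 0.16.

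Of the 31 members tested in polyA+ libraries, 6 lay wholly higher in the 5 libraries than in the other 10, where 7.72% of all genes tested did, and 0 wholly lower. Beside GstS1 these were GstD7, GstD10, GstE3, GstE9 and GstZ2, and GstD8, outside the filter, did the same. GstZ2 was 2.60 to 7.44 CPM against 0.833 to 1.75 CPM. The 5 libraries were singled out after seeing the data, 4 of them are heat libraries, and no test was made. GstE7 and GstO3 overlapped between the 5 and the other 10 libraries.

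Among markers of tissues that express these genes, the midgut and fat body sums in rRNA-depleted libraries were higher at 10°C and 37°C than in any 25°C library, and the Malpighian tubule sum overlapped 25°C at both. In rRNA-depleted libraries the summed level of 10 midgut genes was 1631 to 3734 CPM at 25°C, 4973 to 6433 CPM at 10°C, 3545 to 5421 CPM at 34°C and 4875 to 6779 CPM at 37°C. That of 8 fat body genes was 25846 to 28590 CPM at 25°C, 32921 to 46504 CPM at 10°C and 43064 to 48100 CPM at 37°C. These genes are Fbp1, Fbp2, Lsp2, apolpp, Fst and the yolk protein genes Yp1, Yp2 and Yp3. The paper names Yp1 the most abundant transcript in rRNA-depleted samples, so yolk protein genes can dominate this sum. The sum of 6 Malpighian tubule genes was 623 to 741 CPM at 25°C, 626 to 847 CPM at 10°C and 677 to 799 CPM at 37°C. At 34°C the midgut sum overlapped 25°C. The fat body sum (40549 to 44680 CPM) and the tubule sum (762 to 1132 CPM) at 34°C lay wholly above 25°C. In polyA+ libraries the midgut sum was 471 to 2128 CPM at 25°C and 4239 to 15977 CPM at 37°C. The fat body sum there was 9331 to 12339 CPM at 25°C and 24158 to 38980 CPM at 37°C. The tubule sum was 472 to 545 CPM at 25°C and 584 to 792 CPM at 37°C. No midgut, fat body or tubule marker was without counts. In whole flies fewer cells of a type and less RNA per cell cannot be told apart, and the part of these tissue markers in the responses was not tested.

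**Figure D5:**
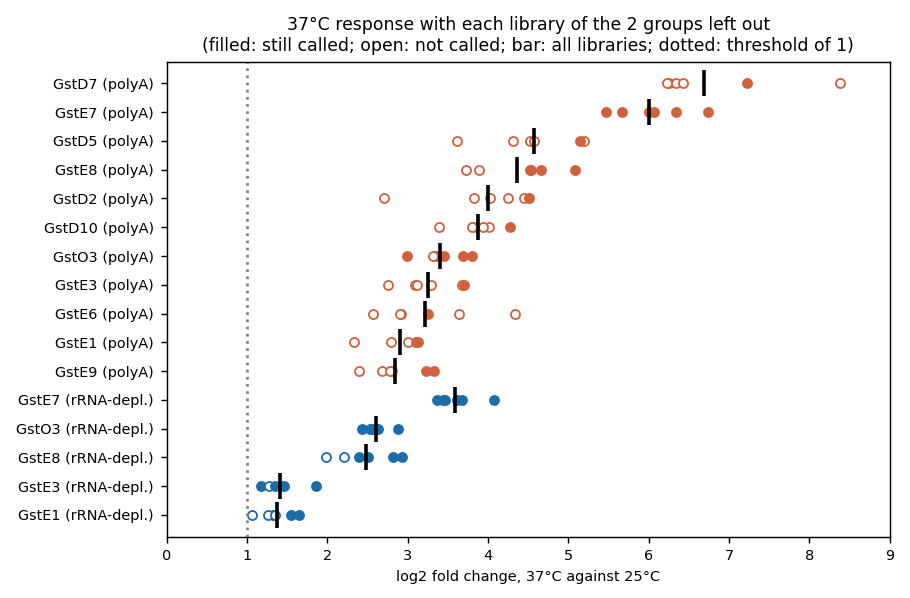
log2 fold change at 37°C against 25°C of each called member (bar) and its value when 1 of the 6 libraries compared was left out (points), with polyA+ libraries above and rRNA-depleted libraries below. Filled points remained called and open points did not, and GstE7 in both types and GstO3 in rRNA-depleted libraries have filled points only.

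The calls differed in how far they rested on single libraries. In rRNA-depleted libraries GstE7 and GstO3 at 37°C were called with any 1 of the 6 libraries left out, with ranges of 3.36 to 4.07 and 2.43 to 2.88. GstE3 lost its call in 1 of these 6 fits (without replicate 3 at 25°C, 1.17 to 1.86), GstE8 in 2 (without replicate 3 at 25°C or at 37°C, 1.99 to 2.93) and GstE1 in 4 (without replicate 1 or 3 at 25°C or replicate 2 or 3 at 37°C, 1.06 to 1.65). The count of 5 members became 2 without replicate 3 at 25°C and 3 without replicate 3 at 37°C. Over all genes the number called higher went from 200 to 96 and 113 in these fits. At 34°C GstE7 lost its call without replicate 2 or replicate 3 at 25°C, and GstO3 without either of these or replicate 2 at 34°C. In polyA+ libraries at 37°C GstE7 was called in all 6 fits, GstO3 in 5 (not without replicate 3 at 25°C) and the other 9 members in 1 to 3. The count of 11 members became 5, 2 and 1 without replicates 1, 2 and 3 at 25°C, 2 and 4 without replicates 1 and 2 at 37°C, and 15 without replicate 3 at 37°C. Calls over all genes moved in the same fits. From 348 called higher they became 214, 18 and 20 without replicates 1, 2 and 3 at 25°C. Without replicates 1, 2 and 3 at 37°C they became 31, 47 and 1188. GstE7 at 34°C in polyA+ libraries was not called without replicate 2 or 3 at 25°C or without replicate 3 at 34°C. No member called at 34°C or 37°C changed sign in these fits.

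Genes that supply or regulate the pathway were counted in short lists, which cannot tell few calls from the share over all genes. At 34°C 0.679% of all genes in rRNA-depleted and 0.0864% in polyA+ libraries were called higher. At 37°C these shares were 2.06% and 3.76%. Of 12 genes of glutathione synthesis and reduction, such as Gclc, 8 were tested in each type and 0 were called by edgeR at any temperature. Of the 3 regulators tested among cnc, Keap1 and their partners, which control GstD1, 0 were called, and of 12 other antioxidant enzymes and stress genes only ref(2)P, an adaptor in autophagy, was called, at 34°C (1.01) and 37°C (1.35) in rRNA-depleted libraries. Of 3 glutathione transferases whose symbols fall outside the rule, se was called higher at 37°C in both types. This Omega enzyme of eye pigment synthesis had 1.36 ± 0.36 CPM (SD, n = 3) in controls and 8.71 ± 2.13 CPM at 37°C in rRNA-depleted libraries, a log2 fold change of 2.67 ± 0.51 (adjusted p = 0.00652). In polyA+ libraries its log2 fold change was 4.30 ± 1.10 (adjusted p = 0.0483). GstO2, which shares 61 bp with se on the opposite strand, had a log2 fold change of 0.14 in rRNA-depleted libraries.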

How the data were processed

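The authors aligned reads to dm6 with the FlyBase annotation and deposited whole-number counts per gene without normalization; their notes name STAR 2.7.7a and Salmon 1.4.0, and which made the counts is not stated. For the equalized counts they removed rRNA reads, trimmed polyA+ reads and drew them down. Full counts served as an alternative. Here edgeR 4.0.16 (R 4.3.3, limma 3.58.1) was applied to the 15 libraries of each type with TMM scaling, filterByExpr over 5 temperature groups and robust quasi-likelihood fits, adjusted over all genes tested, and the interaction over 30 libraries and 10 groups was called by the adjusted p alone. Each SE is the fold change over the root of its F value. DESeq2 1.42.0 was an alternative by its Wald test. The other alternatives were edgeR fits. They used DESeq2's size factors, no filter, a fold change of 1.2 tested by glmTreat, the adjusted p alone or a replicate block. Further edgeR fits took the 6 libraries alone or left each library out. Exon lengths came from Ensembl release 115. The procedure was tested on simulated data.

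All members are accounted for by class. For members called against 25°C, CPM or counts are given in the libraries of the type and temperatures in which they were called. Members of smallest p and of largest and lowest fold change are given with their fold changes, and not all with CPM. Members and gene lists were chosen with earlier results of these data known. Leaving out the libraries of low histone share, the contrast of 37°C with 34°C and the 150 bp counts were chosen after seeing the data. Replicates were separate pools of flies, and 0 of 30 replicate pairs were identical. No sequences were analysed here.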

Additional observations from a re-analysis of the deposited data

How the results depend on the processing

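Under DESeq2's size factors the median of all genes in polyA+ libraries moved by 0.16 at 37°C and 0.15 at 10°C on the log2 scale, and the members above 0 became 27 of 31 at both. Counts of members called, by edgeR unless another tool is named, were within 1.5 times those reported under the alternatives not listed here. In rRNA-depleted libraries at 34°C the fit to the 6 libraries alone called 1, and over all genes 69 higher against 66 in the main fit. In polyA+ libraries at 10°C DESeq2's Wald test called 1, and over all genes 72 higher and 3 lower. At 37°C in polyA+ libraries the replicate block called 7, and over all genes 211 higher against 348 in the main fit. Calls without the libraries of low histone share are not counted here, as 1 library is then left at 34°C and 1 at 37°C. In that fit the median log2 fold change over members was 0.50 at 34°C and 0.63 at 37°C, against -0.09 and -0.06 over all genes. For 37°C against 34°C, 1 was called by DESeq2's Wald test in each type, and in rRNA-depleted libraries also without a filter and from the 6 libraries alone. Calls over all genes in these fits are given above. For 37°C against 10°C in polyA+ libraries DESeq2's Wald test called 6, full counts 4 and full counts of 150 bp reads 3. No filter called 2 and the 6 libraries alone 0. Over all genes these fits called 84, 43, 42, 22 and 6 higher, in that order, and the main fit 20. With 1 library left out the counts ran, in rRNA-depleted libraries, from 0 to 3 at 10°C, 0 to 3 at 34°C and 2 to 5 at 37°C. In polyA+ libraries they ran from 0 to 1 at 34°C, 1 to 15 at 37°C and 0 to 5 for 37°C against 10°C. Over all genes the number called higher ran from 1 to 171 at 10°C and 29 to 90 at 34°C in rRNA-depleted libraries. In polyA+ libraries it ran from 7 to 10 at 34°C and from 13 to 41 for 37°C against 10°C. The interaction gave 0 to 2. GstE1 at 10°C changed sign. In rRNA-depleted libraries its log2 fold change went from 0.01 to -0.0040 with the replicate block and ran from -0.16 to 0.19 with a library left out. In polyA+ libraries it went from 0.40 to -0.33 without low histone share and ran from -0.26 to 0.62 with a library left out. Deviations of libraries with the same replicate number had r of -0.14 to 0.25 in rRNA-depleted and -0.47 to 0.44 in polyA+ libraries, so the numbers were not taken as pairs. The cause of these changes was not tested. Depth limits the Delta genes most, and common dispersion was larger in polyA+ (0.538 as coefficient of variation) than in rRNA-depleted libraries (0.240).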

Other observations

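Among members outside the filter, a fit without any filter gave GstD8 a log2 fold change of 3.22 at 37°C in polyA+ libraries (edgeR adjusted p = 0.0744), GstE2 1.66 (adjusted p = 0.184) and GstE5 1.50 (adjusted p = 0.225) at 37°C in rRNA-depleted libraries. GstE2 had a log2 fold change of -0.48 (adjusted p = 0.879) in polyA+ libraries.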
